A study of Homo sapiens with 8 samples.

Results

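Antisense long non-coding RNAs are described here by symbol. They are the rows of the count table whose symbol ends in -AS and a digit and whose mean level over all 8 libraries was at least 2 CPM (the count over the library total, times 1e6). This rule took 148 of the 311 rows with such a symbol, in a table of 15982 genes. The mean CPM that chose them does not use the contrast between the groups. The 148 RNAs were nevertheless taken up with earlier results of these data known. Of these, 138 reached 2 CPM in the mean of both groups, 3 in the mean of the miR-101 libraries only and 7 in the mean of the control libraries only.

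The cells were 143BTK-, an established human osteosarcoma line that lacks thymidine kinase. One group of 4 libraries came from cells that received a mimic of the microRNA hsa-miR-101-3p, and the other group of 4 from cells given a negative control mimic. Both groups were grown without glucose, in medium with 10 mM galactose, 5% dialysed serum and uridine. Both received 80 pmol of mimic by lipofection at the start and again at 48 h, and both were harvested at 120 h. All libraries come from this 1 line, and the labels speak of 4 separate transfection experiments, numbered 1 to 4 in each group. The comparison asks which transcripts differ after the mimic, and for each antisense RNA how it differs beside the gene it is named for.

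An antisense transcript is copied from the DNA strand opposite to another gene, and its symbol gives that sense gene before the suffix. Some such RNAs start beside the sense promoter and run away from it, some overlap the sense transcript head to head or tail to tail, and some lie within it. Single members are known to change chromatin, transcription or mRNA stability at their own locus, and others act elsewhere, host small nucleolar RNAs or bind microRNAs, while most have no described role. A microRNA such as miR-101-3p guides Argonaute to RNAs that pair with its seed, bases 2 to 8, and the sites described best lie in the 3' ends of mRNAs.

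The seed and the sites searched for in the antisense RNAs are shown because they are the part of these sequences through which the mimic could pair with them directly. The mature sequence is from RefSeq (GRCh38.p14, chr9:4850345-4850365, plus strand), with the seed in capitals. The site sequences are windows of 30 bases from the longest GENCODE 29 transcript of each RNA (GRCh38), read 5' to 3' on the RNA's own strand, with the match in capitals. Of the windows, the first 6 hold the 8-base match GTACTGTA, and the last holds the 7-base match TACTGTA. In both, the last A lies opposite the base before the seed, and TACTGTA lacks the partner of seed base 8.
hsa-miR-101-3p: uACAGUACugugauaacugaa
CAPN10-AS1: gctcttggtctgaaGTACTGTAattaaagt
CCDC18-AS1: cattcctcaagcagGTACTGTAataaagaa
GABPB1-AS1: gaaatgagagacctGTACTGTAtctgttaa
JHDM1D-AS1: ctggagaaaaaaagGTACTGTAattttggc
MBNL1-AS1: tgaaactgttttatGTACTGTAacccaaac
UBA6-AS1: gtgaattgttccttGTACTGTAttctgaac
FRMD6-AS1: gcagtttctaaggaTACTGTActtatgatt

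Total counts ran from 17603054 to 20160267 per library. An antisense RNA of the set had a median of 94 counts per library, and the lowest count of any of them was 7. EZH2, a histone methyltransferase and described target of miR-101, checked the mimic. It averaged 28.1 ± 2.09 CPM in miR-101 libraries and 45.7 ± 5.12 CPM in control libraries (SD, n = 4 each), with a fold change of -0.70 on the log2 scale (edgeR adjusted p = 0.00561). Of 7 mesenchymal or osteoblast markers VIM, SPARC, RUNX2, COL1A1 and TWIST1 were present in every library, while COL1A2 and ALPL are not rows of the table. RUNX2 had 20.5 to 31.4 CPM in miR-101 libraries and 9.22 to 18.8 CPM in control libraries, without overlap, as had 15.1% of all tested genes. COL1A1 had 9.55 to 17.9 CPM in miR-101 libraries and 3.96 to 9.80 CPM in control libraries. The groups also overlapped for the other markers present. In miR-101 against control libraries VIM had 476 to 806 against 526 to 899.5 CPM. SPARC had 362 to 1442 against 295 to 841 CPM, and TWIST1 26.7 to 32.3 against 21.4 to 27.9 CPM. Of 4 epithelial markers CDH1 and KRT19 are not rows, KRT8 had 87.0 to 143 CPM in miR-101 libraries and 49.7 to 75.2 CPM in control libraries, and EPCAM had 9.30 to 17.0 CPM in miR-101 libraries and 5.11 to 10.04 CPM in control libraries. Of the leukocyte genes PTPRC and CD3E are not rows, and CD14 had 1.52 to 2.05 CPM in miR-101 libraries and 1.19 to 3.55 CPM in control libraries. Of the endothelial genes CDH5 is not a row, and PECAM1 had 0.867 to 2.04 CPM in miR-101 libraries and 0.860 to 3.96 CPM in control libraries. The part of these markers in the results below was not tested.

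Few of the antisense RNAs were called as changed. By edgeR's quasi-likelihood test, fitted on the whole table and adjusted over all 15905 tested genes, 3 of the 148 were called higher and 1 lower at an adjusted p under 0.05. FRMD6-AS1, PRKCQ-AS1 and ADIRF-AS1 were higher and APCDD1L-AS1 was lower. The share called was 2.70% of the antisense RNAs, against 6.62% of all tested genes (3.3% higher and 3.32% lower) and 7.27% of the tested genes with a mean of 2 to 10 CPM. All 148 passed the filter on low counts. Limma-voom called 2 higher and 1 lower, beside 6.66% of all genes, and DESeq2 3 higher and 2 lower, beside 10.7%. At an unadjusted p under 0.05, 16 were higher and 9 were lower, while 22.3% of all tested genes passed that threshold in either direction. Groups without overlap were found for 14 of the 148 RNAs (9.46%), 8 of them higher and 6 lower, against 15.1% of all tested genes.

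The antisense RNAs had no common direction. Their median log2 fold change was -0.0052 (quartiles -0.22 and 0.18), and that of all tested genes was -0.0051 (quartiles -0.20 and 0.21). Positive values were found for 73 and negative values for 75. For 134 of the 148 the change was under 0.5 in size on the log2 scale, and for 1, APCDD1L-AS1, it was at least 1. Here and below a log2 fold change is miR-101 over negative control, and CPM given for single RNAs are scaled to the TMM-adjusted library size. In these bulk libraries fewer cells with an RNA and less of it per cell cannot be told apart.

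**Figure D1:**
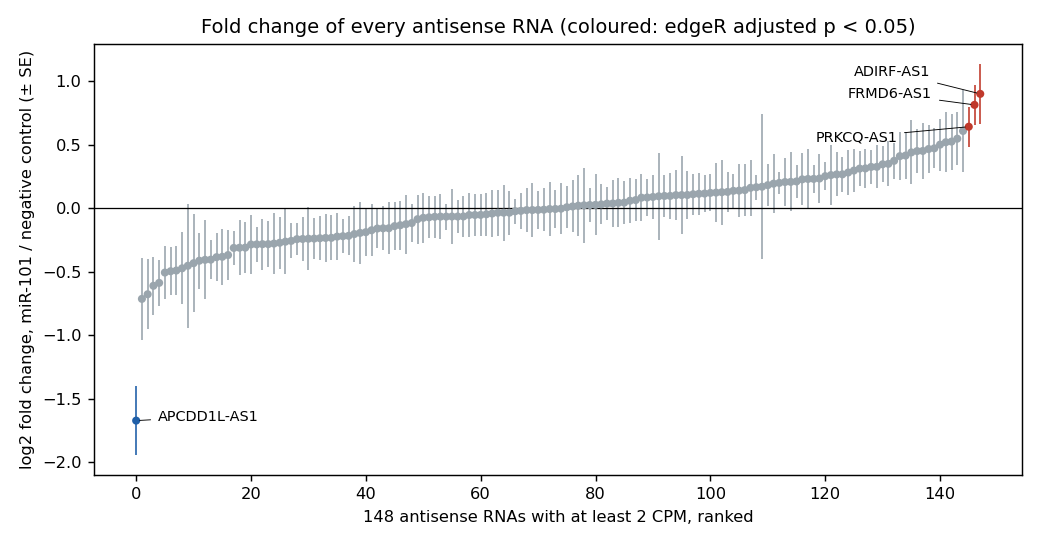
Log2 fold change (miR-101 over negative control) of each of the 148 antisense RNAs, ranked along the x axis. Points are edgeR estimates and lines their standard errors. APCDD1L-AS1 at -1.67 stands alone at the low end, and the 3 RNAs called higher lie between 0.64 and 0.90 at the high end.

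APCDD1L-AS1 had the largest change of the set. It had 1.93, 2.60, 4.06 and 3.47 CPM in miR-101 libraries 1 to 4, against 6.32, 8.99, 9.81 and 13.4 CPM in control libraries 1 to 4. Every miR-101 library lay below every control library, and within each replicate number the miR-101 library was the lower one. The log2 fold change was -1.67 ± 0.27 (SE), with an edgeR adjusted p of 0.00580. Its call was kept whichever 1 of the 8 libraries was left out. The RNA is transcribed from chr20:58515379-58619888 on the plus strand (GRCh38, GENCODE 29, where it bears the name APCDD1L-DT), and it starts 248 bases from the start of APCDD1L, which runs the other way. The 2 genes share no exon base.

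APCDD1L, a homologue of the Wnt inhibitor APCDD1, was itself barely detected. It had 0.322, 0.150, 0.783 and 0.542 CPM in miR-101 libraries, from 6, 3, 16 and 10 counts, against 0.659, 0.836, 1.18 and 2.58 CPM in control libraries, from 12, 16, 19 and 54 counts. The groups overlapped, since miR-101 replicate 3 lay above control replicate 1. Its log2 fold change was -1.55 ± 0.53 and was not called (edgeR adjusted p = 0.109), but it was called with the replicate number as a block (adjusted p = 0.0353). The ratio of the antisense RNA to APCDD1L differed by -0.16 ± 0.42 on the log2 scale between the groups (two-sided exact permutation p = 0.743).

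FRMD6-AS1 is a single-exon RNA that lies within FRMD6, a FERM-domain protein that acts upstream in Hippo signalling. It had 9.55, 10.7, 11.2 and 8.18 CPM in the miR-101 libraries, against 5.16, 6.48, 6.02 and 4.92 CPM in the control libraries. All 4 miR-101 libraries lay above all 4 control libraries. The log2 fold change was 0.81 ± 0.16 (edgeR adjusted p = 0.0124), and the call was kept in each of the 8 fits without 1 library, where the adjusted p ran up to 0.04996. FRMD6-AS1 occupies chr14:51649516-51651744 on the minus strand, shares no exon base with FRMD6, and starts 114 bases from the nearest annotated start of an FRMD6 transcript. It carries the 7-base match TACTGTA shown above, which covers the seed only in part, at base 1621 of its 2229 bases.

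FRMD6 rose as well, and was the 1 sense gene called together with its antisense RNA. It had 504, 482, 504 and 559 CPM in miR-101 libraries, against 347, 369, 328 and 384 CPM in control libraries, without overlap. Its log2 fold change was 0.52 ± 0.10 (edgeR adjusted p = 0.0106). The ratio of FRMD6-AS1 to FRMD6 was 0.29 ± 0.19 higher on the log2 scale, a difference that the test of the ratio did not separate from 0 (two-sided exact permutation p = 0.143).

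PRKCQ-AS1 starts 118 bases from PRKCQ, the gene of protein kinase C theta, which is best known from T cell receptor signalling, and runs away from it at chr10:6580419-6616452 on the plus strand. It had 9.55, 10.1, 12.7 and 10.7 CPM in miR-101 libraries, against 5.71, 6.27, 7.82 and 7.84 CPM in control libraries. The groups did not overlap. The log2 fold change was 0.64 ± 0.16 (edgeR adjusted p = 0.0366). The call was kept only without control replicate 3 or control replicate 4, and in the other 6 fits without 1 library the adjusted p ran up to 0.112. PRKCQ had 10.2 to 13.95 CPM in miR-101 libraries and 8.57 to 11.4 CPM in control libraries, and its change of 0.28 ± 0.15 was not called (edgeR adjusted p = 0.313).

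ADIRF-AS1 had the highest adjusted p of the 4. It had 5.37, 4.70, 4.36 and 2.38 CPM in miR-101 libraries, against 2.20, 2.25, 2.42 and 2.15 CPM in control libraries. Replicates 1 to 3 of the miR-101 group lay above all controls, but replicate 4 lay below control replicate 3, so the groups overlapped. The log2 fold change was 0.90 ± 0.24 (edgeR adjusted p = 0.0484). It was called in 1 of the 8 fits without 1 library, that without miR-101 replicate 4 (adjusted p = 0.00826), and in the other 7 the adjusted p ran up to 0.146. By limma-voom it was not called (adjusted p = 0.0794). ADIRF-AS1 shares 917 exon bases with ADIRF, the adipogenesis regulatory factor gene on the other strand, which is not a row of the table. The RNA also shares 905 exon bases with other annotation on its own strand. How shared reads were counted is not given, so reads of either strand may have been counted for ADIRF-AS1.

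**Figure D2:**
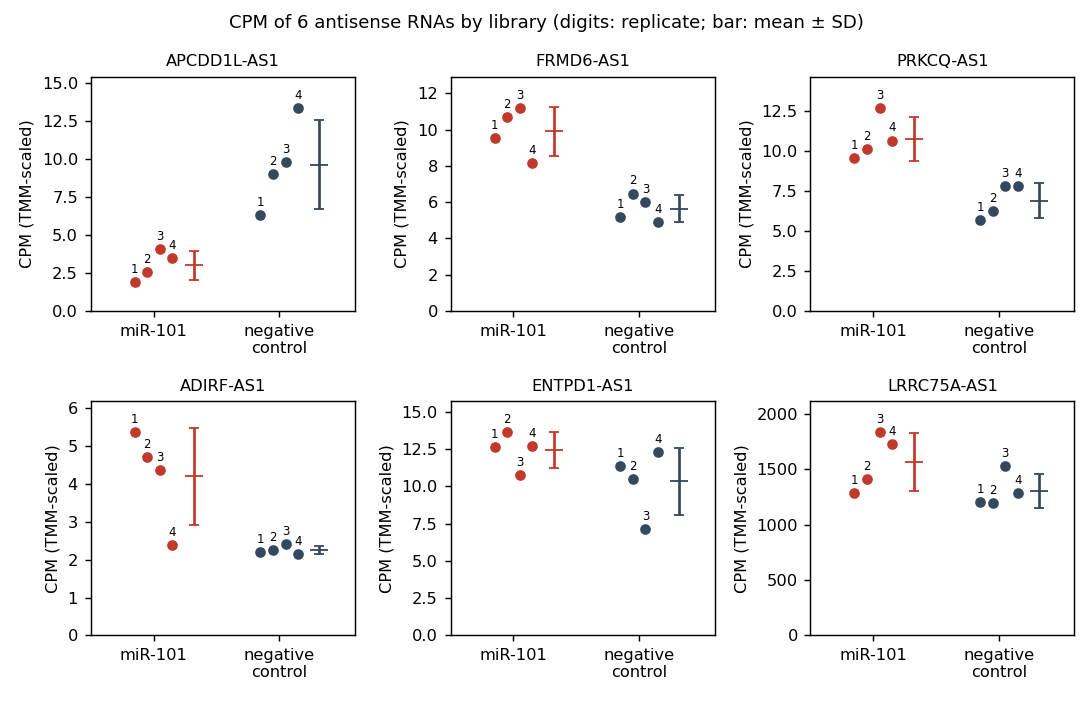
CPM of 6 antisense RNAs in each library, the 4 that were called, ENTPD1-AS1 and LRRC75A-AS1. Digits are replicate numbers, and the crossbar with whiskers is the group mean ± SD (n = 4). The groups are apart for APCDD1L-AS1, FRMD6-AS1 and PRKCQ-AS1, and miR-101 replicate 4 of ADIRF-AS1 lies among the controls.

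In a fit that blocked on the replicate number, 4 of the antisense RNAs were called higher and 2 lower, beside 10.5% of all genes. The 2 that the block added, THAP9-AS1 and TRHDE-AS1, are named after their values were seen. THAP9-AS1 had 22.1, 21.8, 24.6 and 28.6 CPM in miR-101 libraries, against 15.5, 14.6, 22.5 and 17.4 CPM in control libraries, a log2 fold change of 0.47 (edgeR adjusted p = 0.105 without the block and 0.0488 with it). TRHDE-AS1 had 13.7, 14.4, 18.8 and 15.8 CPM in miR-101 libraries, against 19.2, 18.4, 30.8 and 26.0 CPM in control libraries, a log2 fold change of -0.59 (edgeR adjusted p = 0.0840 without the block and 0.0203 with it). In both RNAs the groups overlapped through libraries with different numbers, while each same-numbered pair differed in the direction of the fold change. TRHDE, the sense gene of TRHDE-AS1 and a peptidase that degrades thyrotropin-releasing hormone, had a change of -0.44 that was not called (edgeR adjusted p = 0.227).

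The abundant antisense RNAs were not called. LRRC75A-AS1, a host transcript of the small nucleolar RNAs SNORD49A, SNORD49B and SNORD65, was by far the most abundant, with a mean of 1430.1 CPM. It had 1288, 1410.1, 1836 and 1731 CPM in miR-101 libraries, against 1201, 1195, 1526 and 1288 CPM in control libraries. The groups overlapped, although each miR-101 library lay above the control library of the same number. Its log2 fold change was 0.27 ± 0.14 (edgeR adjusted p = 0.287). The small nucleolar RNA genes lie on the same strand, and whether their reads were counted with the host is not given in the sources used here.

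The summed counts of the antisense RNAs made up 0.302% to 0.360% of a miR-101 library and 0.279% to 0.319% of a control library, with means of 0.323% ± 0.0258 in miR-101 libraries and 0.296% ± 0.0169 in control libraries (SD, n = 4 each). Without LRRC75A-AS1 the share was 0.167% ± 0.00755 in miR-101 libraries and 0.166% ± 0.0105 in control libraries. LRRC75A-AS1 alone held 48.1% ± 3.50 of the counts of the set in miR-101 libraries and 43.9% ± 1.88 in control libraries. The median antisense RNA had a mean of 5.03 CPM, 116 were under 10 CPM and 14 reached 20 CPM.

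FGD5-AS1 and OIP5-AS1 came next in abundance, and OIP5-AS1 is known in zebrafish as cyrano, a binder of a microRNA. FGD5-AS1 averaged 246 ± 19.6 CPM in miR-101 libraries and 250.1 ± 15.3 CPM in control libraries (SD, n = 4 each). OIP5-AS1 averaged 241 ± 10.5 CPM in miR-101 libraries and 253 ± 25.7 CPM in control libraries (SD, n = 4 each). Their log2 fold changes were -0.025 and -0.066, both smaller than their standard errors. PSMA3-AS1, named for a proteasome subunit gene, had 67.4, 70.8, 72.3 and 68.1 CPM in miR-101 libraries, against 58.5, 59.8, 63.1 and 61.4 CPM in control libraries. Its groups did not overlap, yet the change of 0.20 ± 0.086 was not called (edgeR adjusted p = 0.201).

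EPB41L4A-AS1, which holds the small nucleolar RNA gene SNORA13, behaved in the same way, with 30.7 to 36.3 CPM in miR-101 libraries against 28.3 to 29.9 CPM in control libraries and a change of 0.16 ± 0.10 (edgeR adjusted p = 0.360). OTUD6B-AS1 had a log2 fold change of 0.11, GABPB1-AS1 of 0.23, NNT-AS1 of -0.31, NCBP2-AS2 of -0.054 and CKMT2-AS1 of 0.33. These 5 stood at mean levels of 27.3 to 60.5 CPM, their groups overlapped, and none was called. GENCODE 29 gives the type of 144 of the 148 rows. It lists 91 as antisense, 25 as lincRNA, 19 as processed transcript and 2 as bidirectional promoter lncRNA. It lists 3 as protein coding, NCBP2-AS2 among them, and the other 4 as transcribed pseudogenes (2 unitary and 2 unprocessed), so the suffix does not make every row a non-coding RNA.

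Beside the called RNAs, further antisense RNAs had groups that did not overlap without passing the threshold. On the low side ZFPM2-AS1, named for a cofactor of GATA factors, had 3.43, 3.65, 1.86 and 3.25 CPM in miR-101 libraries, against 3.85, 4.07, 5.09 and 5.59 CPM in control libraries. Its log2 fold change was -0.61 ± 0.23 (edgeR adjusted p = 0.145), and that of ZFPM2 was -0.72 ± 0.36 (adjusted p = 0.272). FUT8-AS1, which lies within the core fucosyltransferase gene FUT8, had 5.25 to 6.00 CPM in miR-101 libraries against 6.27 to 8.52 CPM in control libraries, a change of -0.41 ± 0.15 (adjusted p = 0.144). PRR34-AS1 at -0.51 and NRSN2-AS1 at -0.39 completed the largest negative values without overlap. Their means over all libraries were 2.00 and 2.13 CPM, and both reached the limit of 2 CPM in the control libraries only. They thus met the rule through the group where they were higher, and their direction is not independent of it.

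On the high side HOXA-AS2, which is transcribed within the HOXA cluster of homeobox genes, had 4.61, 6.10, 4.70 and 4.77 CPM in miR-101 libraries, against 4.23, 3.66, 3.91 and 3.01 CPM in control libraries. Its log2 fold change was 0.45 ± 0.17 (edgeR adjusted p = 0.151). PXN-AS1 overlaps the 3' end of PXN, the gene of the focal adhesion adaptor paxillin, and had 5.69, 6.60, 6.61 and 7.31 CPM in miR-101 libraries, against 5.22, 4.75, 5.40 and 5.26 CPM in control libraries. Its change was 0.35 ± 0.14 (edgeR adjusted p = 0.177).

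Lists of antisense RNAs grouped by what their sense gene or the RNA itself is known for held no called RNA. The lists are short, and 6.62% of all tested genes were called, so the absence of a call says little about them. Of 10 RNAs of the table antisense to mitochondrial or respiratory genes, 4 reached 2 CPM. Their log2 fold changes were -0.31 for NNT-AS1 (the transhydrogenase of the inner membrane), 0.23 for GABPB1-AS1 (a subunit of a factor that activates respiratory genes), 0.084 for COX10-AS1 (an enzyme of haem A synthesis) and 0.16 for SLC25A21-AS1 (an oxodicarboxylate carrier). The 4 sense genes were not called either. Of the 8 antisense RNAs at transcription factor genes, 2 had positive and 6 negative values, with a median of -0.15. GATA2-AS1, with 13.7, 13.7, 11.2 and 15.3 CPM in miR-101 libraries and 10.5, 10.8, 9.06 and 13.0 CPM in control libraries, had the highest of these at 0.31 ± 0.15 (edgeR adjusted p = 0.256), and DLX6-AS1, SNAI3-AS1 and SP2-AS1 had -0.23, 0.14 and -0.13. The 2 RNAs of the HOX clusters, HOXA-AS2 and HOXD-AS2, had 0.45 and 0.26. The 17 members with a function described elsewhere had a median of 0.10 and a range of -0.31 to 0.28, beside the median of -0.0051 over all genes.

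A row of the table existed for the sense gene of 130 of the 148 antisense RNAs. Of these sense genes 6 were called higher and 3 lower (6.92%), beside 6.62% of all genes, and their median log2 fold change was -0.039. Higher were ENTPD1, CYP1B1, DEPDC1, SH3RF3, FRMD6 and KTN1, and lower were TIPARP, ZEB1 and USP46. Blocking on the replicate number gave 7 higher and 9 lower, beside 10.5% of all genes in that fit. Groups did not overlap for 17 of the 130 (13.1%), against 15.1% of all tested genes. FRMD6-AS1 was the 1 antisense RNA called among the 9 pairs whose sense gene was called.

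**Figure D3:**
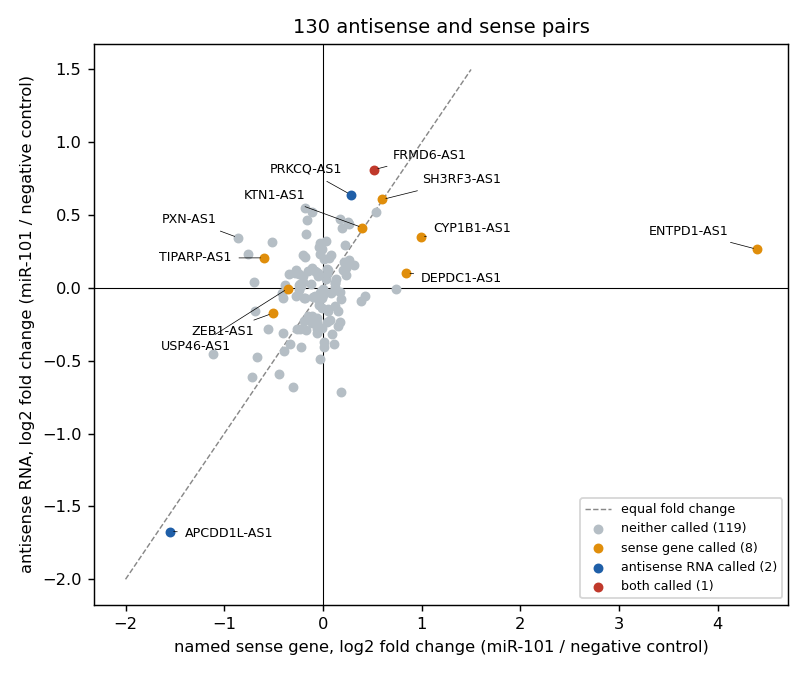
Log2 fold changes (miR-101 over negative control) of the antisense RNA (y axis) and of its named sense gene (x axis) for 130 pairs. Colours give which member of a pair had an edgeR adjusted p under 0.05, and the dashed line marks equal fold changes. ENTPD1-AS1 lies at 0.27 where ENTPD1 is at 4.40, and APCDD1L-AS1 lies near the dashed line.

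The largest gap between partners was at ENTPD1, the gene of the ectonucleotidase CD39. ENTPD1 had 8.64, 8.90, 3.13 and 3.63 CPM in miR-101 libraries, against 0.275, 0.366, 0.248 and 0.239 CPM in control libraries, where these levels rested on 4 to 7 counts per library. Its log2 fold change was 4.40 ± 0.45 (edgeR adjusted p = 0.000612). ENTPD1-AS1, whose 3' part overlaps that of ENTPD1 by 454 exon bases, had 12.7, 13.6, 10.8 and 12.7 CPM in miR-101 libraries, against 11.4, 10.5, 7.14 and 12.3 CPM in control libraries. The groups of the antisense RNA overlapped, and its change of 0.27 ± 0.17 was not called (edgeR adjusted p = 0.398). The antisense RNA had 1.46, 1.53, 3.42 and 3.47 counts per sense count in miR-101 libraries, against 37.7, 26.9, 25.7 and 46.8 in control libraries. These ratios are of counts and are not set per length.

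At CYP1B1, a cytochrome P450 of steroid and xenobiotic metabolism, the sense gene also rose by more than its antisense RNA. CYP1B1 had 354, 342, 292 and 361 CPM in miR-101 libraries, against 174, 175, 169.7 and 159 CPM in control libraries, a change of 0.99 ± 0.10 (edgeR adjusted p = 0.000612). CYP1B1-AS1 had 2.63, 2.10, 2.35 and 2.55 CPM in miR-101 libraries, against 1.65, 2.09, 2.05 and 1.77 CPM in control libraries, and its change of 0.35 ± 0.18 was not called (edgeR adjusted p = 0.280), although its groups did not overlap. Its mean reached the limit of 2 CPM in the miR-101 libraries only. It thus met the rule through the group where it was higher, and its direction is not independent of the rule. The pair shares 678 exon bases. DEPDC1, a DEP-domain gene of dividing cells, averaged 236 ± 26.3 CPM in miR-101 libraries and 131 ± 8.39 CPM in control libraries (edgeR adjusted p = 0.00183). DEPDC1-AS1 had 1.99, 2.15, 2.55 and 3.95 CPM in miR-101 libraries and 2.53, 2.51, 3.60 and 1.34 CPM in control libraries, with overlap and a change of 0.10 ± 0.31.

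In the pairs SH3RF3-AS1 with SH3RF3, a ubiquitin ligase gene, and KTN1-AS1 with KTN1, the gene of the kinesin-binding protein kinectin, both partners had like values. SH3RF3-AS1 had 2.47, 3.35, 2.89 and 2.28 CPM in miR-101 libraries, against 2.25, 2.66, 1.55 and 0.765 CPM in control libraries. Like CYP1B1-AS1, it reached a mean of 2 CPM in the miR-101 libraries only. Its change of 0.61 ± 0.32 was not called (edgeR adjusted p = 0.299), while SH3RF3 changed by 0.60 ± 0.15 (edgeR adjusted p = 0.0399). Of the fits without 1 library, SH3RF3 was called only in those without miR-101 replicate 4 or control replicate 4. KTN1-AS1 had 10.7, 9.89, 9.50 and 7.26 CPM in miR-101 libraries, against 6.04, 7.21, 5.71 and 8.99 CPM in control libraries, and miR-101 replicate 4 lay below control replicate 4. Its change was 0.41 ± 0.18 (edgeR adjusted p = 0.214), beside 0.40 ± 0.11 for KTN1 (edgeR adjusted p = 0.0479, called in none of the 8 fits without 1 library).

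KTN1-AS1 and KTN1 are an example of a shared start region, and the sequence is shown because both RNAs of the pair begin in it on opposite strands. The window holds 250 bases before and 50 after the RefSeq start of KTN1-AS1 (GRCh38.p14, chr14:55580043-55580342, minus strand), and the 214 bases in capitals also lie in the window of KTN1, whose start is 115 bases away. It holds 54 CG pairs, where the median over 35114 RefSeq windows of this length is 14.
KTN1-AS1 start region: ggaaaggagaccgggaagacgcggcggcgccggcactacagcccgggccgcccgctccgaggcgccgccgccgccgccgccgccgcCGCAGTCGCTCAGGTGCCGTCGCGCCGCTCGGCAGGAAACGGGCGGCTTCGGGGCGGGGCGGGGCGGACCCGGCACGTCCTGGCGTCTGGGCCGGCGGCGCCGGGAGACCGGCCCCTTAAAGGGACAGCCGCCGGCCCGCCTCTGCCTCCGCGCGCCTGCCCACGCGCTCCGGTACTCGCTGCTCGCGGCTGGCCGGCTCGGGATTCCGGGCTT

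The 3 sense genes that fell had antisense RNAs that were not called. TIPARP, an ADP-ribosyltransferase that restrains the aryl hydrocarbon receptor, had 76.7, 72.8, 92.9 and 69.1 CPM in miR-101 libraries, against 119, 109, 141 and 101.3 CPM in control libraries (log2 fold change -0.60, edgeR adjusted p = 0.0236). TIPARP-AS1 had 3.43, 2.60, 3.28 and 3.09 CPM in miR-101 libraries and 2.80, 2.35, 3.85 and 1.82 CPM in control libraries, with overlap and a change of 0.21 ± 0.23. ZEB1, a transcription factor of epithelial to mesenchymal transition, averaged 43.6 ± 2.58 CPM in miR-101 libraries and 62.1 ± 7.07 CPM in control libraries (log2 fold change -0.51, edgeR adjusted p = 0.0200). ZEB1-AS1 had 2.36, 2.00, 3.23 and 2.06 CPM in miR-101 libraries and 2.25, 2.77, 2.92 and 2.96 CPM in control libraries, a change of -0.17 ± 0.20. USP46, a deubiquitinase gene, averaged 51.1 ± 2.05 CPM in miR-101 libraries and 65.4 ± 3.57 CPM in control libraries (edgeR adjusted p = 0.0396). USP46-AS1 averaged 2.27 ± 0.297 CPM in miR-101 libraries and 2.29 ± 0.436 CPM in control libraries (SD, n = 4 each). Of the fits without 1 library, USP46 was called only in those without miR-101 replicate 4 or control replicate 4. TIPARP was called only without miR-101 replicate 3 or control replicate 2, 3 or 4. ZEB1 was called only without replicate 3 or 4 of either group.

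Whether a pair's partners differed in their response was tested on the ratio of antisense to sense counts within each library, by an exact permutation test (two-sided, 70 assignments of the group labels). Of 130 pairs, 17 (13.1%) had an exact p = 0.0286, the smallest p this design allows, against 11.6% of all 275 pairs of the table. The ratio was higher with the mimic in 14 of these and lower in 3. No pair passed Benjamini-Hochberg adjustment over the 275 pairs, where the smallest adjusted value was 0.246. In the paired form of the test, with sign flips of same-numbered libraries, the smallest p possible is 0.125, so no pair can pass there.

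**Figure D4:**
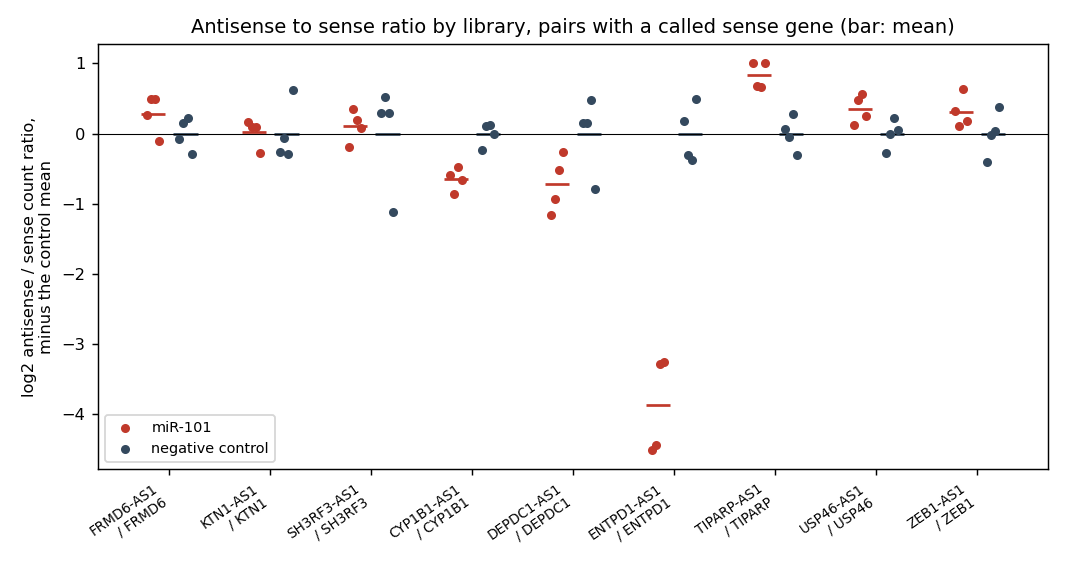
Log2 ratio of antisense to sense counts in each library, with the mean of the control libraries subtracted, for the 9 pairs whose sense gene was called. Points are libraries and bars are group means (n = 4 each). The groups are apart for CYP1B1-AS1, ENTPD1-AS1 and TIPARP-AS1 and overlap for the other 6 pairs.

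The ratio of ENTPD1-AS1 to ENTPD1 was lower by the largest amount, -3.87 ± 0.40 on the log2 scale. That of CYP1B1-AS1 was lower as well, with 0.00751, 0.00621, 0.00812 and 0.00713 antisense counts per sense count in miR-101 libraries, against 0.00962, 0.0121, 0.0123 and 0.0113 in control libraries (-0.64 ± 0.11 on the log2 scale). The third lower ratio, that of MSC-AS1 to the muscle transcription factor gene MSC, was -0.74 ± 0.43. On the high side PXN-AS1 had the largest difference. It had 0.376, 0.503, 0.329 and 0.408 counts per PXN count in miR-101 libraries, against 0.254, 0.209, 0.155 and 0.125 in control libraries, a difference of 1.16 ± 0.26. PXN itself was at 15.2, 13.1, 20.1 and 17.98 CPM in miR-101 libraries, against 20.7, 22.9, 34.9 and 42.1 CPM in control libraries, a log2 fold change of -0.86 that missed the call (edgeR adjusted p = 0.0502) and passed it with the replicate number as a block (adjusted p = 0.00982). The ratio of TIPARP-AS1 to TIPARP was 0.83 ± 0.16 higher, and that of PRKCQ-AS1 to PRKCQ 0.37 ± 0.19 higher. These 6 pairs all had the smallest possible exact p of 0.0286. The ratio of DEPDC1-AS1 differed by -0.72 (exact permutation p = 0.0857), of USP46-AS1 by 0.36 (p = 0.0571), of ZEB1-AS1 by 0.31 (p = 0.171), of SH3RF3-AS1 by 0.11 (p = 0.943) and of KTN1-AS1 by 0.018 (p = 0.971).

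Across the 130 pairs the antisense and the sense fold change had the same sign in 78 and opposite signs in 52. Pearson's r of the 2 fold changes across pairs was 0.36 and Spearman's rho 0.32, and without ENTPD1 Pearson's r was 0.46. Both values of a pair come from the same 8 libraries and share their depth and scaling, and pairs are not replicates, so these are descriptions. Among the 82 located pairs whose exons share bases 47 had the same sign and r was 0.26, and among the 45 that share none 30 had the same sign and r was 0.65. The first of these groups holds ENTPD1 and the second APCDD1L. Where the closest annotated starts of the partners lay within 1000 bases, 55 of 93 pairs had the same sign and r was 0.53, against 22 of 34 pairs and an r of 0.26 with starts farther apart. Here APCDD1L is in the near group and ENTPD1 in the far one.

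Of the 148 RNAs 144 were located in GENCODE 29, 127 by their symbol and 17 by an older one, of which 13 now bear the suffix -DT. The transcribed regions of the RNA and its sense gene overlapped at their starts in 55, had separate starts and ran apart in 31, and overlapped at their ends in 29. In 11 the antisense RNA lay within the sense gene, in 15 it enclosed the sense gene, and in 7 no position could be set. The median log2 fold change was 0.030 for overlapping starts, -0.0040 for separate starts, -0.0064 for overlapping ends, -0.24 for RNAs within the sense gene and -0.015 for RNAs around it. Of the 11 RNAs within the sense gene 4 had positive values, with a range of -0.59 for TRHDE-AS1 to 0.81 for FRMD6-AS1. The closest starts of the RNA and its sense gene lay within 1000 bases in 99, the 4 called RNAs included, and farther apart in 42. Over all tested genes 6.62% were called. At an unadjusted p under 0.05 were 18 of the 99 and 6 of the 42, beside 22.3% of all tested genes. The difference between the distances was not tested.

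**Figure D5:**
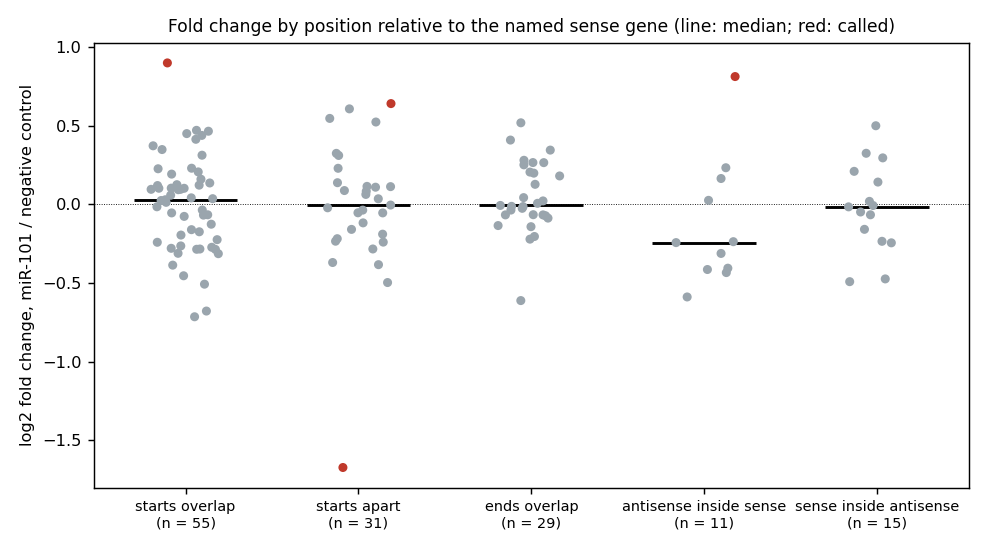
Log2 fold change (miR-101 over negative control) of the antisense RNAs by their position relative to the named sense gene. Points are RNAs, red where called, and lines are medians, from 0.030 for overlapping starts to -0.24 for the 11 RNAs within the sense gene. The spread within each position is wider than the distance between the medians.

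Exons of 106 of the located RNAs share bases with a gene on the other strand, and those of 38 share none. Since it is not given whether counting used the strand, the values of the 106 may hold reads of the other gene. Of the 106, 1 was called higher (ADIRF-AS1), and of the 38, 2 higher (FRMD6-AS1 and PRKCQ-AS1) and 1 lower (APCDD1L-AS1). Over all tested genes 6.62% were called, and a difference in calls between the 106 and the 38 was not tested. The median log2 fold change was 0.010 in the RNAs with shared bases and -0.029 in those without.

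Antisense RNAs with an 8-base match to the seed of miR-101-3p had a median fold change near that of RNAs with no match. The effect of a match was not tested. The 8-base match was found in 7 of the 144 located RNAs, the 7-base match GTACTGT as the strongest one in 4, and the 7-base match TACTGTA in 18, each searched on the RNA strand only. Among 13222 antisense and lincRNA genes of GENCODE 29 the shares were 1.06%, 2.74% and 4.55%, in transcripts of all lengths. The 7 RNAs with the 8-base match had log2 fold changes of -0.50 to 0.23, a median of -0.0064 and no call. JHDM1D-AS1 was the lowest of them, with 2.47, 2.55, 2.45 and 2.11 CPM in miR-101 libraries, against 2.53, 3.40, 3.48 and 4.11 CPM in control libraries, where miR-101 replicate 2 lay above control replicate 1 (edgeR adjusted p = 0.148). MBNL1-AS1 had -0.31, CAPN10-AS1 -0.16, CCDC18-AS1 -0.0064, UBA6-AS1 0.088, OTUD6B-AS1 0.11 and GABPB1-AS1 0.23. Besides the 8-base match, JHDM1D-AS1, MBNL1-AS1 and GABPB1-AS1 also hold a 7-base match or more. The 115 RNAs without a match had a median of -0.0040, with 2 called higher and 1 lower, where 6.62% of all tested genes were called. The 1 called RNA with a match, FRMD6-AS1, was higher.

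Set per kilobase of exon, antisense RNAs mostly lay below their sense genes. Of 127 pairs with annotated exon lengths, the antisense RNA was above the sense gene in 38, and the median ratio of sense to antisense level per kilobase was 2.59. On this scale of mean CPM per kilobase, LRRC75A-AS1 had 382 and LRRC75A 0.255, APCDD1L-AS1 1.28 and APCDD1L 0.224, and ENTPD1-AS1 0.908 and ENTPD1 0.456. FRMD6-AS1 had 3.49 and FRMD6 46.2, and PRKCQ-AS1 2.27 and PRKCQ 3.18. Lengths are of all annotated exons merged, which may differ from the transcripts present in these cells.

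The limit of 2 CPM cut through a continuous range. Just inside it were PRR34-AS1 (2.00 CPM), FOXD3-AS1 (2.01 CPM) and KIF9-AS1 (2.02 CPM), with log2 fold changes of -0.51, -0.26 and 0.022. Just outside were LIFR-AS1 (1.97 CPM), MATN1-AS1 (1.95 CPM) and DICER1-AS1 (1.94 CPM), with -0.0001, -0.17 and 0.058. LIFR, the leukaemia inhibitory factor receptor gene, averaged 314 ± 40.2 CPM in miR-101 libraries and 197 ± 38.0 CPM in control libraries (edgeR adjusted p = 0.0250), while LIFR-AS1 averaged 1.96 ± 0.225 CPM in miR-101 libraries and 1.97 ± 0.603 CPM in control libraries (SD, n = 4 each).

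More antisense RNAs were called in replicates 1 and 2 than in replicates 3 and 4, and the libraries of the first 2 numbers differed little inside a group. The SD over genes of the log2 difference was 0.173 between miR-101 replicates 1 and 2 and 0.186 between control replicates 1 and 2, and 0.265 to 0.504 between other libraries of a group. In a fit of replicates 1 and 2 alone 16 of the 148 antisense RNAs were called higher and 13 lower, beside 32.4% of all genes. Of these 29, 27 had the same sign in replicates 3 and 4. The same-sign share among all genes called in replicates 1 and 2 was not computed, so the 27 are a description. In a fit of replicates 3 and 4 alone edgeR called none, beside 0.0379% of all genes (6 genes), while 2 antisense RNAs had positive and 4 negative values at an unadjusted p under 0.05. With the counts of replicates 1 and 2 summed to 1 sample per group, APCDD1L-AS1 was the 1 antisense RNA still called (adjusted p = 0.0386), beside 1.09% of all genes.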

How the data were processed

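RNA-seq read counts per gene were deposited by the authors for 8 libraries, 4 with the miR-101-3p mimic and 4 with the negative control mimic, as whole numbers that were not normalised. Per the labels, total RNA was extracted with a mirVana kit and libraries were made with the Ribo-zero Gold chemistry. The submitters' processing notes name the genome build hg38 and the tools StringTie 1.2.4, TopHat2 2.0.14 and bcl2fastq 2.18.0.12, without their roles. The counting tool, its annotation and its use of strand were not given in the sources used here, so reads of overlapping genes on opposite strands cannot be told apart.

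Computed from the counts were edgeR 4.0.16 quasi-likelihood fits (R 4.3.3, limma 3.58.1) over 15905 genes, with filterByExpr, TMM factors, no robust estimation, the group as single term and Benjamini-Hochberg adjustment over all genes, and the script was tested on simulated data. Calls are at an adjusted p under 0.05. Ratios of antisense to sense counts used a pseudocount of 0.5. DESeq2 1.42.0, limma-voom, other scaling and filters, and subsets of libraries were alternatives. Positions and transcripts are from GENCODE 29, and the microRNA and start region from RefSeq. Seed matches were searched in the longest transcript of each gene. Depth was 17603054 to 20160267 counts per library, and its precision covers counting error only.

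Pairing was checked through each library's deviation from its group mean. The correlation of these deviations between same-numbered libraries, over genes, was 0.379, 0.526, 0.204 and 0.203 for replicates 1 to 4. Between libraries of unlike number it ran from -0.532 to 0.457, and miR-101 replicates 1 and 4 correlated more with control replicates 2 and 3 (0.457 and 0.44) than with their own number. As all 4 same-numbered values were above 0.1, the fit was repeated with a term for the replicate number (the replicate block). These values do not settle whether the numbers pair the samples. The main fit and the exact permutation test of the ratios did not use the replicate number.

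The antisense RNAs, gene lists and tests were chosen with earlier results of these data known. Named were all called antisense RNAs, the 10 with the highest mean CPM, the 5 largest positive and 5 largest negative fold changes without overlap between groups, those whose sense gene was called, the 3 just inside and 3 just outside the limit of 2 CPM, up to 4 per list by mean CPM, and their sense genes. RNAs named outside this rule (THAP9-AS1, TRHDE-AS1, MSC-AS1, the RNAs with an 8-base seed match and those under 2 CPM) were chosen after their values were seen.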

Additional observations from a re-analysis of the deposited data

Results flagged for a closer look

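In 4 of the named antisense RNAs and in KIF9-AS1 in both groups, 1 library stood far from the other 3 of its group, by Dixon's test at the 95% level. These are 6 of 148 groups examined, and chance flags about 1 in 20. OTUD6B-AS1 had 73.9 CPM in control replicate 3, where the other controls had 53.1 to 53.6 CPM. CKMT2-AS1 had 38.9 CPM in miR-101 replicate 4, where the other miR-101 libraries had 27.3 to 28.0 CPM. HOXA-AS2 had 6.10 CPM in miR-101 replicate 2, with 4.61 to 4.77 CPM in the others. NRSN2-AS1 had 2.87 CPM in control replicate 4, with 2.23 to 2.25 CPM in the other controls. KIF9-AS1 had 2.84 CPM in miR-101 replicate 3, with 1.72 to 1.79 CPM in the other miR-101 libraries, and 3.20 CPM in control replicate 4, with 1.51 to 1.61 CPM in the other controls. None of these RNAs was called.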

How the results depend on the processing

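The count of 3 antisense RNAs called higher and 1 lower stayed the same with DESeq2's size factors in the edgeR fit, without the filter, and with a limit of 1 CPM, and was 2 higher and 1 lower with limma-voom, with a limit of 5 CPM and among RNAs that share no exon base with the other strand. DESeq2 called 2 lower, and 7 sense genes lower where edgeR called 3. With the replicate number as a block, 2 antisense RNAs and 9 sense genes were called lower, and the block ended no call of an antisense RNA. Replicates 1 and 2 alone gave 16 antisense RNAs higher and 13 lower and 17 sense genes higher and 29 lower. Replicates 3 and 4 alone gave 0 in each of these 4 counts by edgeR, where 7 sense genes had positive and 2 negative values at an unadjusted p under 0.05. Summing replicates 1 and 2 left 0 antisense RNAs higher, and 3 sense genes higher and 0 lower. Leaving out 1 library gave 1 to 3 antisense RNAs higher and 1 to 1 lower, 4 to 6 sense genes higher and 0 to 5 lower, the 0 without miR-101 replicate 1 or 2 and the 5 without control replicate 4. The 17 pairs with an exact p under 0.05 for the ratio were 19 with a pseudocount of 2, 32 of all 275 pairs, 8 to 16 without 1 library, and 0 in the paired form with sign flips, where no p can pass.

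Of 648 fold changes of the 81 named genes under the other settings 621 kept their direction, and of 648 without 1 library 610 did. No called gene turned, and the 20 genes that did had log2 fold changes of at most 0.23 in size. With limma-voom the log2 fold change was 0.0085 for USP46-AS1, 0.055 for LIFR-AS1, -0.0005 for PSMA3 and 0.015 for SP2, and with the replicate block 0.023 for LIFR-AS1. In replicates 1 and 2 alone it was -0.29 for DEPDC1-AS1, 0.13 for USP46-AS1, -0.27 for DICER1-AS1, 0.024 for DLX6-AS1, 0.044 for SP2-AS1, -0.24 for FGD5, 0.06 for GABPB1 and 0.065 for NCBP2. In replicates 3 and 4 alone it was -0.068 for KIF9-AS1, 0.33 for LIFR-AS1, -0.0897 for COX10-AS1, -0.12 for SLC25A21-AS1, 0.067 for LRRC75A, -0.031 for PSMA3, -0.13 for FOXD3, -0.14 for DLX6 and 0.057 for SP2. With replicates 1 and 2 summed it was -0.0044 for KIF9-AS1, 0.072 for LIFR-AS1, 0.0049 for LRRC75A, -0.0071 for PSMA3 and 0.0031 for SP2. Without 1 library the range was -0.16 to 0.32 for DEPDC1-AS1, -0.11 to 0.17 for DICER1-AS1, -0.17 to 0.23 for DLX6, -0.082 to 0.013 for FGD5-AS1, -0.075 to 0.27 for FOXD3, -0.0999 to 0.033 for GABPB1, -0.19 to 0.37 for KIF9-AS1, -0.19 to 0.16 for LIFR-AS1, -0.11 to 0.078 for LRRC75A, -0.16 to 0.077 for NCBP2, -0.2001 to 0.071 for NCBP2-AS2, -0.013 to 0.24 for OTUD6B-AS1, -0.15 to 0.12 for PSMA3, -0.027 to 0.28 for SLC25A21-AS1, -0.14 to 0.19 for SP2 and -0.099 to 0.11 for USP46-AS1. The cause of these turns was not tested.

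The median antisense RNA had 94 counts per library. The labels speak of separate transfection experiments, but replicates 1 and 2 lay closer together than the rest, and whether they are separate cultures was not tested. P-values measure the spread between these libraries of 1 cell line. Counts of RNAs that share exon bases with another gene are uncertain.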

Other observations

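The 163 rows with an antisense symbol under 2 CPM were not members of the set. Of these 158 were tested, and 4 were called higher and none lower (2.53%), against 6.62% of all tested genes. At an unadjusted p under 0.05, 18 had positive and 6 negative values, while 22.3% of all tested genes passed in either direction. The median log2 fold change of the 158 was 0.13. The 4 called rows were named after their values were seen, and all were at about 1 CPM or less. IDH1-AS1, which lies within the gene of the cytosolic isocitrate dehydrogenase IDH1, had 0.966, 0.999, 0.979 and 0.867 CPM in miR-101 libraries, against 0.439, 0.418, 0.124 and 0.287 CPM in control libraries (log2 fold change 1.55, edgeR adjusted p = 0.0165). POT1-AS1, named for a telomere-binding protein gene, had 0.966, 1.05, 0.832 and 1.41 CPM in miR-101 libraries, against 0.275, 0.366, 0.372 and 0.430 CPM in control libraries (log2 fold change 1.53, edgeR adjusted p = 0.00950), and was called in each of the 8 fits without 1 library. EIF1B-AS1 and PLBD1-AS1 had log2 fold changes of 1.05 and 1.11 (edgeR adjusted p = 0.0396 and 0.0291), and each was called in 1 of the 8. In all 4 the miR-101 libraries lay above the control libraries without overlap. Of the sense genes PLBD1 was called, at 0.62 (edgeR adjusted p = 0.00840), while IDH1 had 0.29, POT1 0.065 and EIF1B 0.19, which were not. The exons of all 4 RNAs share bases with those of the sense gene.

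Other symbol classes of non-coding RNAs tied to a named gene held no called row by edgeR. They are small, and 6.62% of all tested genes were called, so the absence of a call says little about them. These were 8 rows ending in -AS without a digit (1 at an unadjusted p under 0.05, log2 fold changes -0.47 to 0.20), 15 ending in -IT and a digit, for transcripts within introns (none at an unadjusted p under 0.05, -0.48 to 0.57), and 1 ending in -OT and a digit, at 0.68. The 7 antisense RNAs of at least 2 CPM that hold small nucleolar RNA, microRNA or other small RNA genes on their own strand all had positive values, 0.088 to 0.27. Of all 148 antisense RNAs 73 were positive. None of the 7 was called or had an unadjusted p under 0.05. Their 7 sense genes had a median log2 fold change of 0.21, with 1 called higher, so positive values were not particular to the antisense RNAs.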
